A study of Mus musculus with 6 samples.

Results

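The 10 genes examined here encode the enzymes, the transporter and the regulators by which hepatocytes make glucose and store glycogen. They were selected by gene symbol, with no threshold on a measured value: the gluconeogenic enzymes Pcx, Pck1, Fbp1 and G6pc, the glucose 6-phosphate transporter Slc37a4, the glycogen enzymes Gys2 and Pygl, the transcriptional regulators Foxo1 and Ppargc1a, and Igfbp1, a hormone-responsive secreted protein. All 10 were found among the 53599 genes of the count table and all 10 passed the expression filter, which 12691 genes passed. RNA came from mouse hepatocytes taken 4 days after the animals were injected with an AAV, an adeno-associated virus used to deliver genes in vivo, and was measured by RNA-seq. The Sox4 group (3 libraries, genotype label Sox4) received AAV8-TBG-HA-Sox4-P2A-Cre, which carries HA-tagged mouse Sox4 and Cre recombinase, and the control group (3 libraries, genotype label WT) received the empty vector AAV8-TBG-Cre (EV). Cre was therefore carried by both groups, and the TBG promoter restricts both vectors to hepatocytes. The study describes AAV8 as reaching nearly all hepatocytes, and the labels give no share for these libraries. The mice are described as males homozygous for Rosa-LSL-Cas9-EGFP on a C57BL/6J background, 4 to 8 weeks old when vectors for Sox4 expression were given. Their hepatocytes were released with liberase and enriched on Percoll, with no sort described. The study describes the libraries of a group as separate animals, which the labels do not state. Feeding state and hour of harvest are not given in the sources used here. The study reports that Sox4 mice lost weight after injection, with the lowest weight at a later time than this harvest. Any part of that weight loss in the levels below was not tested.

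Gluconeogenesis builds glucose from lactate, glycerol and amino acids. Pyruvate carboxylase (Pcx) and phosphoenolpyruvate carboxykinase (Pck1) carry pyruvate to phosphoenolpyruvate, fructose 1,6-bisphosphatase (Fbp1) removes a phosphate further up the path, and glucose 6-phosphatase (G6pc), fed by the transporter Slc37a4, releases free glucose in the endoplasmic reticulum. Glycogen is made by liver glycogen synthase (Gys2) and broken down by liver glycogen phosphorylase (Pygl). In the fasting liver, glucagon acts through cAMP and the coactivator encoded by Ppargc1a to raise transcription of G6pc and Pck1. Insulin opposes this by moving the transcription factor encoded by Foxo1 out of the nucleus, and Igfbp1, which binds insulin-like growth factors, is a classical target of this insulin arm.

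Sequences of the 250 bases before the transcription start are given for the 4 genes of the set that are known for rapid hormonal control, and for Pygl, the gene with the smallest adjusted p in the set. They were taken from RefSeq on build GRCm38.p6 and are written 5′ to 3′ on the gene's own strand. Capitals mark exact matches to a FOXO-type insulin response core (CAAAACA, or TGTTTTG on the other strand), a cAMP response core (ACGTCA, or TGACGT) and an HNF4-type site core (TCCAAAG, or CTTTGGA). The windows lie at chr11:101367466-101367715 (G6pc, plus strand), chr2:173152823-173153072 (Pck1, plus), chr11:7197537-7197786 (Igfbp1, plus), chr5:51567726-51567975 (Ppargc1a, minus) and chr12:70227684-70227933 (Pygl, minus).
G6pc: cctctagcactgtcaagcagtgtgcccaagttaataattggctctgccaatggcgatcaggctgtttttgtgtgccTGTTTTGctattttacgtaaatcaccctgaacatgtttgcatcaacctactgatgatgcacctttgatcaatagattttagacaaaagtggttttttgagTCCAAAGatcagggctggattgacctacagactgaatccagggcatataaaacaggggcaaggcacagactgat
Pck1: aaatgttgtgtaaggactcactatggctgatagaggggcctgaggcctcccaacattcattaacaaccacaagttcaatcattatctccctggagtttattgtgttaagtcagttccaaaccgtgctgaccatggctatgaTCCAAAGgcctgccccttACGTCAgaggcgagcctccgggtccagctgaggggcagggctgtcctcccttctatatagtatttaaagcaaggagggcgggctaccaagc
Igfbp1: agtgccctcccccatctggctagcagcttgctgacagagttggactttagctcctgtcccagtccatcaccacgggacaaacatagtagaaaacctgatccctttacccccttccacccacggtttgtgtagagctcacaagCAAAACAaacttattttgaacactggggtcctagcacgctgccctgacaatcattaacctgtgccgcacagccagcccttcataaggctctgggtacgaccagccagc
Ppargc1a: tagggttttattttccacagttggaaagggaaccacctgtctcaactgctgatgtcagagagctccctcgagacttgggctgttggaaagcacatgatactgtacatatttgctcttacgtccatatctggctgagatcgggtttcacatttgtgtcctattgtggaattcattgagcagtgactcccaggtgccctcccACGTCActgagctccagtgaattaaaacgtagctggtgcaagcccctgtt
Pygl: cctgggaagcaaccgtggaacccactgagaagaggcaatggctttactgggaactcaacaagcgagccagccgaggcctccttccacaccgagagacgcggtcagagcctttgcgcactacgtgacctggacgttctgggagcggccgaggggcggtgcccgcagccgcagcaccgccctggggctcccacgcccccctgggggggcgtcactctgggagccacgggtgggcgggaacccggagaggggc

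The insulin response core was found in G6pc, where the match began 174 bases before the start, and in Igfbp1, at 108 bases. The cAMP response core was found in Pck1, at 91 bases, and in Ppargc1a, at 50 bases, and the HNF4-type core in G6pc, at 74 bases, and in Pck1, at 109 bases. Of the 9 genes of the set with a RefSeq window (Gys2 had none, 7 had 1 window, and the 9 together had 12), Slc37a4 also held the cAMP core and Pcx the HNF4-type core. A SOX-type core, ACAAAG or CTTTGT, was searched as well and was found in none of the 12 windows, which says only that these letters are not in them. No match overlapped a match to another core. Among all 32851 windows of the same length, 5.56% held the insulin response core, 6.47% the cAMP core, 4.7% the HNF4-type core and 16.5% the SOX-type core. In the 12380 windows of genes tested, these shares were 4.07%, 9.9%, 3.82% and 12.6%. A match is a run of letters and not a measured binding site.

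Total counts per library ranged from 15090629 to 16964860, and the 10 genes together took 0.418% to 0.636% of them. Levels are given as CPM, the counts of a gene per 1e06 counts of its library, on library sizes scaled by the trimmed mean of M-values (TMM), which assumes that most genes do not differ between groups. Sox4 itself had 2, 0 and 3 counts in the EV libraries and 21697, 15097 and 11816 in the Sox4 libraries, so each library matched its label. The scaling matters for every direction below: with library size alone, the median log2 fold change (Sox4 minus EV) of all genes tested moved from 0.04 to 0.51, a shift of 0.47, and the share of called genes that were higher in Sox4 moved from 52.7% to 79.9%. Values with library size alone are therefore given beside TMM values. The defining hepatocyte markers were present in all libraries, although 9 of 12 were lower in Sox4, 3 did not pass and none was higher, with a median log2 fold change of -0.67. With library size alone, 5 of the 12 were lower and 0 higher.

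Of the 10 genes, 4 fell with Sox4 (Pcx, Slc37a4, Pygl and Gys2), 0 rose and 6 did not pass an adjusted p of 0.05 by the edgeR quasi-likelihood test, adjusted over all genes tested. Among all genes tested, 26% were called lower and 29% higher, 55.1% in all. The 40% of the set called lower stood above the 26% of all genes called lower, and under the 55.1% called in either direction. The median log2 fold change of the 10 was -0.53 against 0.04 for all genes tested, and with library size alone it was -0.05 against 0.51. At an unadjusted p under 0.05, 5 were lower and 0 higher, and DESeq2, limma-voom and limma-trend also called 0 higher. With library size alone, the calls were 3 lower (Pcx, Slc37a4 and Pygl) and 2 higher (Igfbp1 and Ppargc1a), where 12.8% of all genes were lower and 51% higher. The libraries of the 2 groups did not overlap for the 4 genes that fell and overlapped for the other 6, while 63% of all genes tested did not overlap. With the replicate number as a block, 6 of the 10 were lower and 0 higher, where 27.6% of all genes were lower and 30.4% higher. In bulk RNA, fewer cells of a type and less RNA per cell cannot be told apart.

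**Figure D1:**
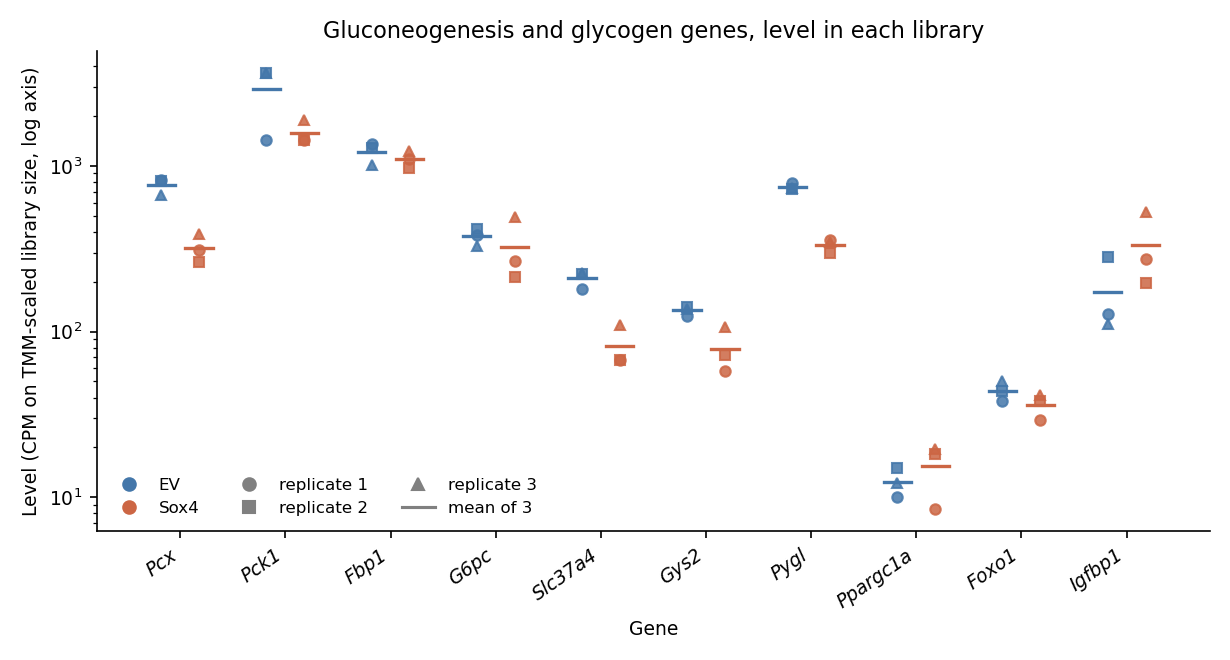
Level of each of the 10 genes in each library, in CPM on TMM-scaled library sizes on a log axis; blue is EV, red is Sox4, the marker shape is the replicate number and the line is the mean of 3 libraries. Pcx, Slc37a4, Gys2 and Pygl separate the groups without overlap, whereas Sox4 replicate 3 stands high in G6pc and Igfbp1 and EV replicate 1 stands low in Pck1.

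Pcx, the mitochondrial enzyme that turns pyruvate into oxaloacetate, fell. It had 819, 805 and 669 CPM in EV 1 to 3 and 309.8, 262 and 386 CPM in Sox4 1 to 3, so that every Sox4 library lay under every EV library. Its log2 fold change (Sox4 minus EV) was -1.26 ± 0.19 (SE, n = 3 per group; adjusted p = 0.000204, edgeR), and -0.79 with library size alone. Lrfn4 lies on the opposite strand of Pcx, and as the strand setting of the counting was not stated, reads of the pair may have been shared.

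Pck1, which makes phosphoenolpyruvate from oxaloacetate in the cytosol, did not pass the threshold, by a small margin. Its levels were 1432, 3641 and 3658 CPM in EV and 1423, 1428 and 1898 CPM in Sox4. EV 1 stood with the Sox4 libraries, at less than the level of Sox4 3, and the other 2 EV libraries stood above all Sox4 libraries. This gave a log2 fold change of -0.88 ± 0.47 (95% interval -1.64 to -0.12 before adjustment; adjusted p = 0.0508, edgeR). Without EV 1 it was -1.22 with an adjusted p of 0.000786, whereas with library size alone it was -0.40 with an adjusted p of 0.302. The spread of Pck1 within EV, a highest over lowest library of 2.55, was larger than that of 97.9% of genes tested, whose median was 1.21.

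Fbp1, which removes a phosphate from fructose 1,6-bisphosphate, did not pass. Its levels were 1357, 1276 and 1019 CPM in EV and 1108, 967 and 1223 CPM in Sox4, and the groups overlapped. The difference on the log2 scale was -0.15 ± 0.16 with an interval of -0.51 to 0.22 (adjusted p = 0.466, edgeR), and it lay on the other side of 0 with library size alone, at 0.32.

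G6pc and Slc37a4, the enzyme and the transporter of the last step, gave different calls. G6pc had 382, 419 and 330.1 CPM in EV and 269, 214 and 495 CPM in Sox4. Sox4 1 and 2 lay under all EV libraries and Sox4 3 lay above all of them. On the log2 scale the difference was -0.21 ± 0.38, with an interval of -0.86 to 0.44 (adjusted p = 0.553, edgeR). Without Sox4 3 it was -0.64 (adjusted p = 0.00859), without Sox4 2 it was 0.02, and with library size alone it was 0.26, so no direction can be given. The highest over lowest Sox4 library of G6pc was 2.32, where the median gene with a mean count of at least 100 had 1.26.

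Slc37a4, which brings glucose 6-phosphate into the endoplasmic reticulum, fell. It had 180.2, 223 and 226 CPM in EV and 67.5, 67.8 and 110.3 CPM in Sox4. All Sox4 libraries lay under all EV libraries, and Sox4 3 was again the highest of its group. The log2 fold change was -1.36 ± 0.26 (adjusted p = 0.000419, edgeR) and -0.89 with library size alone, the most negative of the 10 genes by either scaling.

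The liver forms of both glycogen enzymes fell. Pygl, which releases glucose 1-phosphate from glycogen, had 789, 728 and 736 CPM in EV and 359, 298 and 347 CPM in Sox4. The groups were far apart relative to the spread within each. The log2 fold change was -1.17 ± 0.09 (adjusted p = 7.03e-05, edgeR) and -0.70 with library size alone, and in EV the spread of Pygl was larger than that of only 12.8% of genes tested. The non-coding gene F730035M05Rik lies on the opposite strand of Pygl, so some shared reads are possible. Gys2, which lengthens glycogen chains, had 125, 140.02 and 138 CPM in EV and 58.1, 72.4 and 106 CPM in Sox4. The groups did not overlap, and Sox4 3 came nearest to EV. The log2 fold change was -0.77 ± 0.26 (adjusted p = 0.00912, edgeR), but with library size alone it was -0.30 with an adjusted p of 0.211, so the call for Gys2 rests on the TMM scaling.

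Neither of the 2 transcriptional regulators passed. Foxo1 had 38.0, 43.9 and 50.3 CPM in EV and 29.3, 37.9 and 41.4 CPM in Sox4, with overlapping groups. Its log2 fold change was -0.28 ± 0.19, with an interval of -0.63 to 0.06 (adjusted p = 0.148, edgeR), and 0.19 with library size alone. The antisense gene Gm20402 overlaps Foxo1, so some shared reads are possible, and an RNA level is not a measure of where the FOXO1 protein lies in the cell. Ppargc1a had 10.1, 15.1 and 12.1 CPM in EV and 8.47, 18.3 and 19.5 CPM in Sox4, so that Sox4 1 was the lowest of all 6 libraries and the other 2 Sox4 libraries were the highest. Its log2 fold change was 0.31 ± 0.42, with an interval of -0.379 to 0.9998 (adjusted p = 0.410, edgeR). It passed as higher without Sox4 1, at 0.60 (adjusted p = 0.0158), and with library size alone, at 0.78 (adjusted p = 0.0478). Gm42614, Gm42615 and Gm43605 overlap Ppargc1a on the same strand and Gm42613 on the opposite strand, so shared reads are possible here too.

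Igfbp1, the secreted binding protein, did not pass either. It had 128, 281 and 111 CPM in EV and 273, 196 and 527 CPM in Sox4. EV 2 lay above Sox4 1 and Sox4 2, and Sox4 3 lay above all other libraries. The log2 fold change was 0.94 ± 0.59, the most positive of the 10 genes, with an interval of -0.28 to 2.16 that includes 0 (adjusted p = 0.162, edgeR). It passed without EV 2, at 1.46 (adjusted p = 0.0279), and with library size alone, at 1.41 (adjusted p = 0.0441). Igfbp1 was among the most variable genes of both groups, with a highest over lowest library of 2.52 in EV and 2.695 in Sox4. Immediate early and stress genes, which cell dissociation is known to induce, had a summed level of 804 to 1300.3 CPM in EV libraries and of 1332 to 2288 CPM in Sox4 libraries. Of 9 tested genes of that list 4 were higher and 1 lower (6 and 1 with library size alone), and its part in the level of Igfbp1 was not tested.

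**Figure D2:**
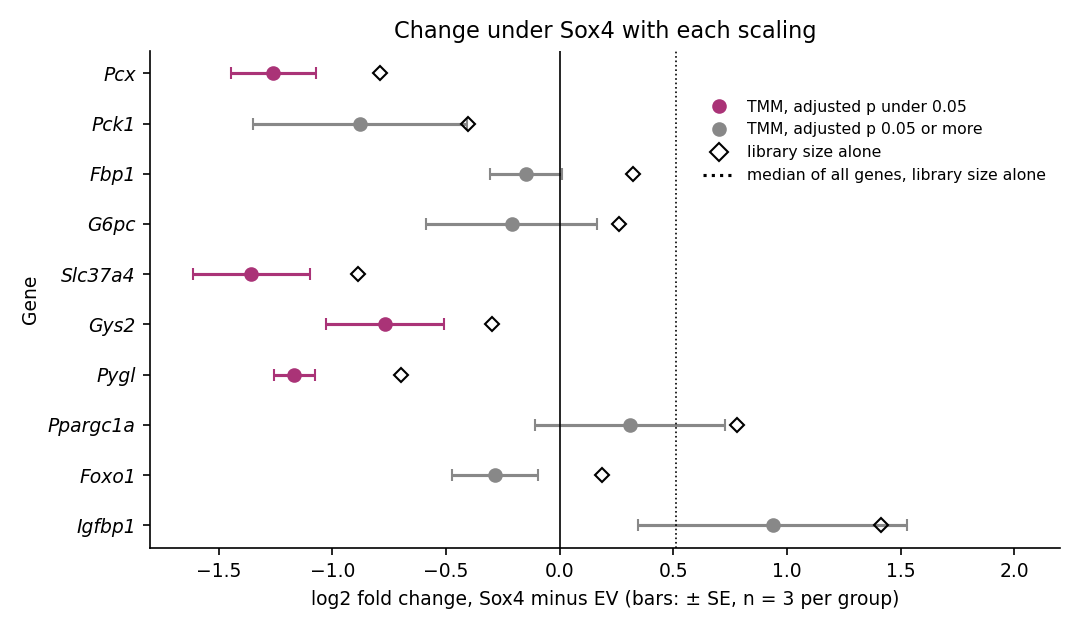
Log2 fold change (Sox4 minus EV) of the 10 genes, with bars of ± 1 SE from 3 libraries per group; purple points passed an adjusted p of 0.05 with TMM scaling, and open diamonds give the value with library size alone. Pcx, Slc37a4, Gys2 and Pygl passed below 0, and all diamonds lie to the right of their points, which moves G6pc, Fbp1 and Foxo1 across 0.

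Sox4 3 was the highest Sox4 library for 9 of the 10 genes, all but Pygl. The share of all genes tested that were highest in Sox4 3 was not counted, so this cannot be called particular to the set. Sox4 3 also stood high in 3 related genes that were chosen after their values were seen. Irs2, an insulin receptor substrate, had 96.4 CPM in Sox4 3 against 36.7 and 44.9 in Sox4 1 and 2. Gk, which encodes the glycerol kinase that feeds glycerol into the path, had 305 against 118 and 169.9 CPM. Slc2a2, the hepatocyte glucose transporter, had 456 against 174 and 238 CPM. Related genes did not all set Sox4 3 apart. Pdk4, a kinase that restrains pyruvate oxidation and is likewise named after its values were seen, had 20.9 CPM in Sox4 1 against 84.2 and 112.4 in Sox4 2 and 3.

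Levels were compared between genes per kilobase of exon, with exon lengths from GENCODE M21. In EV, Pck1 (849 ± 373 CPM per kb, SD, n = 3) and Fbp1 (715 ± 104) were highest and overlapped each other. Pcx (161 ± 17.4), G6pc (156 ± 18.5), Igfbp1 (114 ± 61.3) and Pygl (109 ± 4.77) followed, each overlapping the next in order. Slc37a4 (73.4 ± 8.95) and Gys2 (50.5 ± 3.12) came lower and did not overlap their neighbours. The 2 regulators were lowest, with Foxo1 at 5.08 ± 0.708 and Ppargc1a at 1.89 ± 0.383 CPM per kb. In Sox4, Fbp1 (646 ± 75.4) stood above Pck1 (462 ± 79.5) without overlap, and Igfbp1 (218 ± 114) overlapped G6pc (135 ± 61.8). Pcx (67.1 ± 13.2), Pygl (48.5 ± 4.68), Gys2 (29.7 ± 9.27) and Slc37a4 (28.7 ± 8.61) followed, and of these neighbours Gys2 and Slc37a4 overlapped. Foxo1 (4.17 ± 0.720) and Ppargc1a (2.34 ± 0.920) were again lowest. The exon length covers all annotated transcripts of a gene, so these levels are approximate.

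Ratios of 2 genes within a library do not depend on the scaling, and 11 pairs were compared by an exact permutation test, two-sided, in which the smallest p that 3 against 3 libraries allow is 0.1 (0.275 adjusted over the 11 pairs), so that no pair could pass. The log2 ratio of G6pc to Slc37a4 was 1.09, 0.91 and 0.55 in EV and 1.99, 1.66 and 2.17 in Sox4. The groups did not overlap, and the difference was 1.09 ± 0.22 (SE; exact p = 0.1), so the enzyme's RNA was higher relative to that of its transporter in every Sox4 library. The log2 ratio of Igfbp1 to G6pc was -1.58, -0.58 and -1.57 in EV and 0.02, -0.13 and 0.09 in Sox4, a difference of 1.24 ± 0.34 without overlap (exact p = 0.1). The 3 Sox4 libraries lay close together in this ratio (SD 0.11), although the highest over lowest Sox4 library was 2.695 for Igfbp1 and 2.32 for G6pc.

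The liver enzymes were also set against their isozymes of other tissues. The log2 ratio of Pygl to Pygb, the brain form of glycogen phosphorylase, was 7.51, 7.27 and 7.08 in EV and 3.61, 3.42 and 3.51 in Sox4, a difference of -3.78 ± 0.14 without overlap (exact p = 0.1). Pygb alone rose, from 4.32, 4.71 and 5.45 CPM in EV 1 to 3 to 29.5, 27.8 and 30.5 CPM in Sox4 1 to 3, with a log2 fold change of 2.60 ± 0.10 (adjusted p = 1.33e-06, edgeR). Per kilobase, Pygl at 48.5 remained above Pygb at 6.08 CPM per kb in Sox4. The ratio of Gys2 to Gys1, the muscle form of glycogen synthase, differed by -1.01 ± 0.36 on the log2 scale without overlap (exact p = 0.1). Gys1 itself was at 2.39 ± 0.971 CPM in EV and 2.62 ± 0.249 in Sox4 and did not pass (adjusted p = 0.764, edgeR), and it overlaps Ruvbl2 on the opposite strand. The ratio of cytosolic Pck1 to mitochondrial Pck2 differed by -1.06 ± 0.61, with EV 1 among the Sox4 libraries (exact p = 0.2).

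Pairs of opposed enzymes overlapped between groups. These were Fbp1 over liver phosphofructokinase (Pfkl), with a difference of -0.09 ± 0.27 (exact p = 0.9), Pck1 over liver pyruvate kinase (Pklr), -0.21 ± 0.51 (exact p = 1), and Gys2 over Pygl, 0.36 ± 0.28 (exact p = 0.3). The ratio of Pck1 to G6pc, -0.47 ± 0.53 (exact p = 0.5), and that of Igfbp1 to Foxo1, 1.23 ± 0.59 (exact p = 0.2), overlapped as well. Without EV 1 the difference was -0.71 for Pck1 over Pklr and -0.93 for Pck1 over G6pc, and without EV 2 it was 0.05 and -0.33, so the sign of the former depended on the library left out. Fbp1 over Pfkl, near 0, ranged from -0.36 to 0.08 when 1 library was left out.

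**Figure D3:**
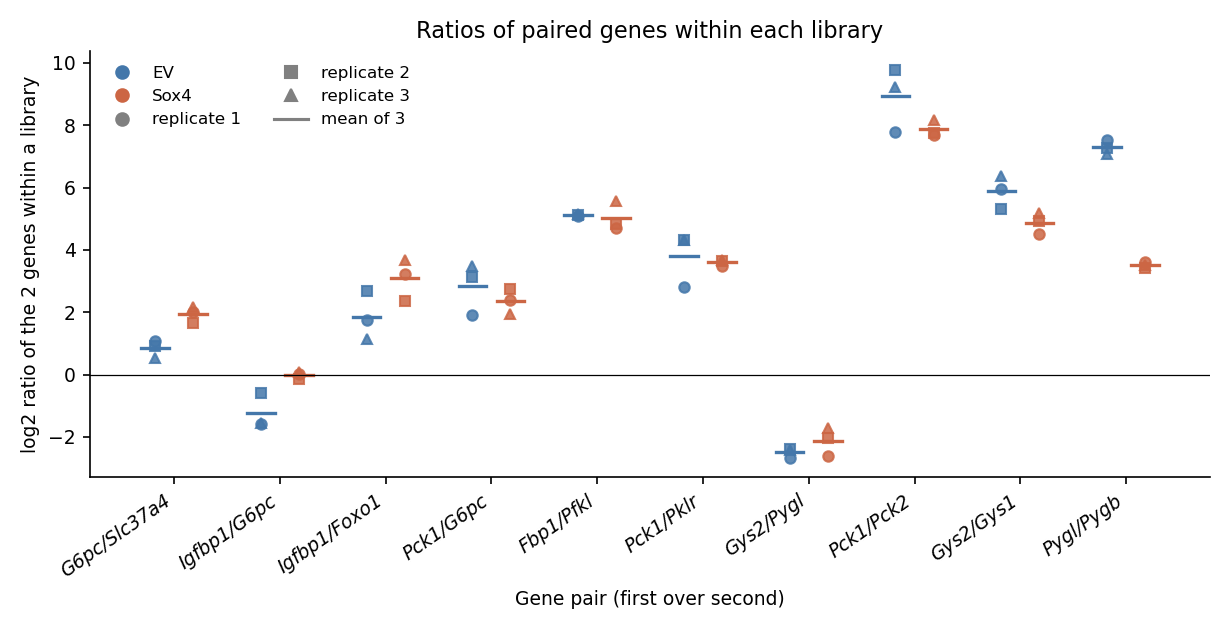
Log2 ratio of gene pairs within each library; blue is EV, red is Sox4, the marker shape is the replicate number and the line is the mean of 3 libraries. The pairs G6pc/Slc37a4, Igfbp1/G6pc, Gys2/Gys1 and Pygl/Pygb do not overlap between groups, and the other pairs shown do.

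Other isozymes and paralogues of the 10 genes were counted from a list of 21, of which 16 were tested. Of these, 6 were higher (37.5%), 4 lower and 6 did not pass, with a median log2 fold change of 0.28, and with library size alone 8 were higher and 1 lower. Beside Pygb, Slc37a3, a relative of the glucose 6-phosphate transporter, rose by 1.10 ± 0.03 on the log2 scale (adjusted p = 1.6e-05, edgeR), from 29.5 ± 0.579 to 63.2 ± 1.82 CPM. Slc37a2 was also called higher, at 1.10 ± 0.30, from a low level of 0.774 ± 0.204 CPM in EV. Among the binding proteins of insulin-like growth factors, Igfbp2 was higher, at 0.84 ± 0.29. Igfbp7 was called higher by a small margin, at 0.77 ± 0.34 (adjusted p = 0.0490, edgeR). Its groups overlapped, with EV 3 at 4.43 CPM and Sox4 1 at 4.21 CPM. Igfbp4 was lower, at -0.70 ± 0.08, and Igfbp5 was lower, at -2.31 ± 0.50, from 2.72 ± 1.14 CPM. Foxo3, a relative of Foxo1, was lower at -0.74 ± 0.17, and Foxo4 was lower at -0.44 ± 0.12 but lay at 0.03 with library size alone. Igfbp4 and Foxo3 did not pass with library size alone (adjusted p = 0.158 and 0.130). Pprc1, which encodes a coactivator related to that of Ppargc1a, was higher at 0.96 ± 0.30. G6pc3, the broadly expressed glucose 6-phosphatase, was at 7.07 ± 1.05 CPM in EV and 7.23 ± 1.44 in Sox4. The remaining 5 isozymes, G6pc2, Fbp2, Pygm, Igfbp6 and Foxo6, had at most 13 counts in any library and were not tested, and Igfbp6 had 0 counts in all libraries.

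The pathway around the 10 genes was read from 8 related lists, with 151 tested genes that include the isozymes. Of these, 33 were higher and 61 lower, with a median log2 fold change of -0.19, and with library size alone 56 were higher and 29 lower. Each list below is to be read against all genes tested, of which 29% were higher and 26% lower. With library size alone, the shares of all genes were 51% and 12.8%. Genes that supply precursors (lactate, alanine, glycerol and the malate and aspartate shuttles) had 15 of 26 lower, 3 higher, 8 not past the threshold and a median of -0.47, but with library size alone 8 were lower and 9 higher. Mdh1, the cytosolic malate dehydrogenase, fell from 799 ± 19.7 to 249 ± 38.1 CPM (-1.68 ± 0.13), and Got1, the cytosolic aspartate aminotransferase, fell from 436 ± 32.2 to 127 ± 39.1 CPM (-1.78 ± 0.25). Aqp9, the glycerol channel of hepatocytes, fell by 0.93 on the log2 scale. In the opposite direction, Ldhb, the heart-type lactate dehydrogenase subunit, rose from 0.859 ± 0.363 to 20.5 ± 3.31 CPM (4.57 ± 0.35; adjusted p = 1.79e-06, edgeR).

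The reversible steps that gluconeogenesis shares with glycolysis were lower in 6 of 8 genes, with 0 higher and a median of -1.04. With library size alone, 6 were lower and 1 higher. Tpi1 (-1.76 ± 0.20), Pgk1 (-1.32 ± 0.17), Gapdh (-1.21 ± 0.12) and Pgam1 (-1.20 ± 0.10) fell. Gapdh had 1596 ± 223 CPM in EV and 688 ± 30.9 CPM in Sox4. The enzymes of these steps work in both directions, so their RNA does not separate glucose making from glucose use.

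Glucose uptake and the glycolytic steps that oppose gluconeogenesis had 5 lower, 1 higher and 8 of 14 not past the threshold, with a median of -0.17, and with library size alone 2 were lower and 2 higher. Pfkfb1, the bifunctional enzyme that sets fructose 2,6-bisphosphate in liver, fell from 35.5 ± 8.35 to 5.56 ± 1.75 CPM (-2.67 ± 0.33), and Khk, ketohexokinase, fell from 351 ± 80.1 to 63.1 ± 15.7 CPM (-2.47 ± 0.29). Pkm, the pyruvate kinase of non-hepatic tissues, rose from 1.07 ± 0.385 to 4.61 ± 0.845 CPM (2.09 ± 0.32), whereas liver Pklr fell by 0.55 on the log2 scale but did not pass with library size alone (adjusted p = 0.585).

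Beyond Gys2 and Pygl, 21 tested glycogen enzymes and targeting subunits held 8 lower, 2 higher and 11 not past the threshold, with a median of -0.23. Ppp1r3b, which brings protein phosphatase 1 to liver glycogen, fell from 261 ± 4.19 to 79.96 ± 17.3 CPM (-1.71 ± 0.19; adjusted p = 2.34e-05, edgeR), and the catalytic subunit Ppp1ca fell by 0.86. Pgm1, phosphoglucomutase, fell by 0.64 and Epm2a, the glycogen phosphatase laforin, fell by 1.34. With library size alone, 3 were lower and 5 higher, and Pgm1 did not pass (adjusted p = 0.215). Ppp1r3d had 0 counts in all EV libraries.

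The hormone arms that act on these genes held calls in both directions, as all genes tested did (29% higher, 26% lower). In the glucagon, cAMP and glucocorticoid arm, 12 of 29 genes were lower (41.4%), 11 higher (37.9%) and 6 did not pass. With library size alone, 4 were lower and 14 higher. Nr3c1, the glucocorticoid receptor, fell from 104 ± 6.29 to 36.3 ± 0.244 CPM (-1.52 ± 0.05), and Klf15, a glucocorticoid-induced factor that promotes gluconeogenesis, fell from 208 ± 27.1 to 62.0 ± 5.57 CPM (-1.75 ± 0.13). Adcy6, an adenylyl cyclase, rose from 18.6 ± 0.648 to 60.3 ± 2.84 CPM (1.70 ± 0.05), and Sik1, a kinase that cAMP induces and that restrains CREB coactivators, rose from 15.5 ± 4.04 to 84.2 ± 12.6 CPM (2.44 ± 0.24). These 4 genes kept their direction and their call with library size alone.

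In the insulin arm, 9 of 24 tested genes were lower (37.5%), 7 higher (29.2%) and 8 did not pass, with a median of -0.11. With library size alone, 3 were lower and 13 higher. Mlxipl, which encodes the carbohydrate-response factor ChREBP, fell from 275 ± 32.3 to 116 ± 21.8 CPM (-1.24 ± 0.18). Irs1 (1.21 ± 0.19) and Akt1 (0.998 ± 0.119), which carry the insulin signal, rose, as did Socs3 (2.55 ± 0.43), a cytokine-induced inhibitor of signalling. Other carriers of that signal, named after their values were seen, fell: Akt2 (-0.80 ± 0.08) and the receptor gene Insr (-0.52 ± 0.09). With library size alone, Akt2 kept its call, at -0.33 (adjusted p = 0.0249, edgeR), and Insr did not (adjusted p = 0.702, edgeR). Among 18 tested FOXO1 targets outside the 10 genes, 4 were higher (22.2%), 5 lower (27.8%) and 9 did not pass, with a median of 0.22. Of all genes tested, 29% were higher and 26% lower. With library size alone, 6 of the targets were higher and 4 lower. Apoc3, a triglyceride-regulating apolipoprotein, fell from 1392 ± 175 to 343 ± 46.0 CPM (-2.02 ± 0.15). Sesn3, a sestrin (1.36 ± 0.11), and Gadd45a, a growth arrest gene (2.29 ± 0.44), rose. Klf15 stands in this list as well as in the glucocorticoid arm.

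**Figure D4:**
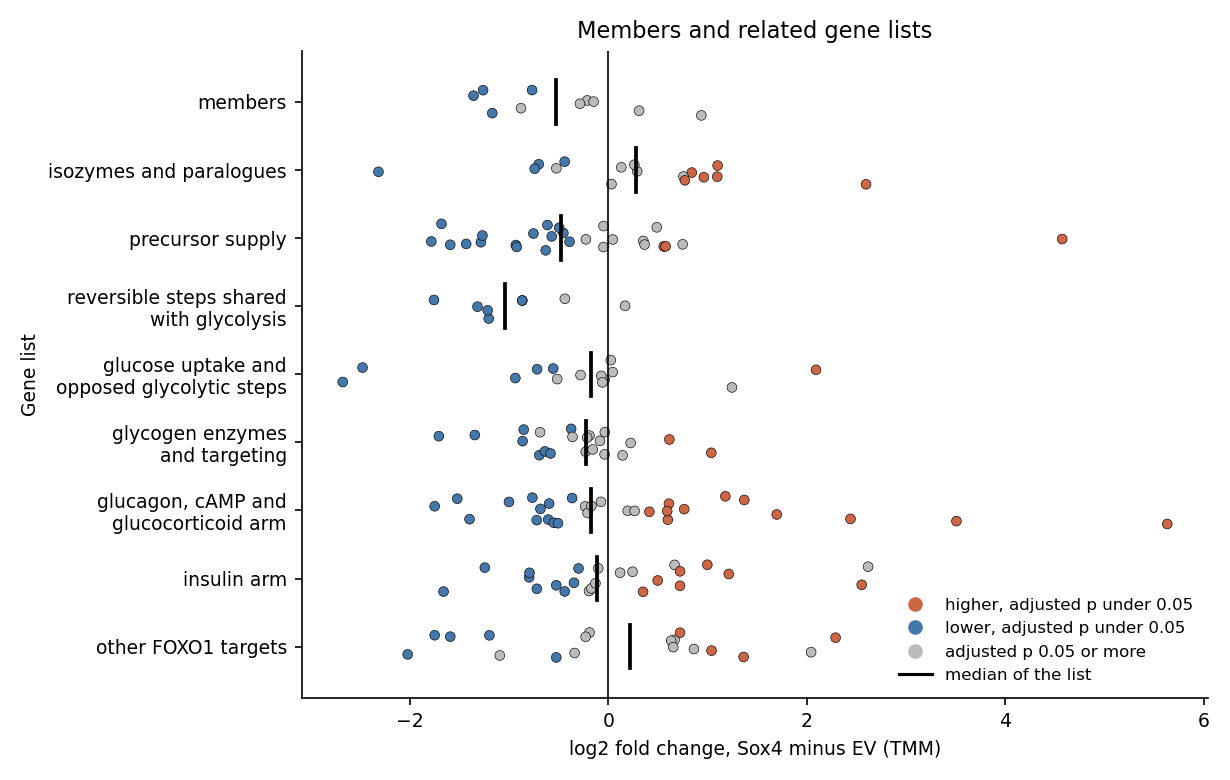
Log2 fold change (Sox4 minus EV, TMM scaling) of each tested gene of the 10 genes and of 8 related lists; red is higher and blue lower at an adjusted p of 0.05, grey did not pass, and the bar is the median of the list. The reversible steps shared with glycolysis have the lowest median, at -1.04, and the isozymes the highest, at 0.28.

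Zonation and other cell types were read beside the gluconeogenic genes, since gluconeogenesis is strongest in periportal hepatocytes. Of 13 periportal genes, a list that includes Pck1, 8 were lower and 0 higher, with a median of -1.43 (8 lower and 1 higher with library size alone). Pigr fell by 3.86 on the log2 scale, Cyp2f2 fell by 2.81 and Gls2, the liver glutaminase, fell by 2.35. Of 12 pericentral genes, 6 were lower and 2 higher, with a median of -0.54 (4 lower and 4 higher with library size alone). Cyp2c29, Glul and Cyp2e1 all fell, with fold changes on the log2 scale of -2.49, -2.61 and -2.46. Genes of both zones were thus among those that fell, beside the 4 of the set.

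Summed markers of other cell types were low. Sums for Kupffer cells, stellate cells and cholangiocytes were higher in each Sox4 library than in each EV library, and endothelial sums overlapped. The gap was narrow for Kupffer cells (28.8 against 29.1 CPM). For stellate cells it depended on the gene Reln, and for cholangiocytes on Spp1, without which the sums of the groups overlapped. Kupffer cell markers had a summed level of 13.4 to 28.8 CPM in the EV libraries against 29.1 to 67.9 CPM in the Sox4 libraries (4 of 9 tested higher, 0 lower, and 8 higher with library size alone), and endothelial markers of 24.3 to 37.6 and 25.8 to 54.0 CPM (3 of 10 higher, 1 lower, and 3 and 0 with library size alone). Stellate markers had a summed level of 11.02 to 51.6 and 102 to 153 CPM (4 of 7 higher, 0 lower, and 6 higher with library size alone), of which Reln took 7.09 to 37.5 and 50.8 to 126 CPM. Cholangiocyte markers had a summed level of 27.8 to 43.8 and 72.3 to 85.3 CPM (2 of 4 higher, 0 lower, and 3 higher with library size alone), of which Spp1 took 4.02 to 6.83 and 35.2 to 41.4 CPM, with Krt19 and Krt7 at 0 in all EV libraries. The study reports that Sox4 induced biliary genes in hepatocytes, and EPCAM in cells traced to them. The cholangiocyte markers, which include Epcam, are therefore not specific to cholangiocytes here. The part of other cell types in the values of the 10 genes was not tested.

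Genes whose levels followed most closely those of the 6 genes with overlapping groups were sought among the 9024 genes whose mean count reached 100, by Pearson correlation of log2 CPM over the 6 libraries, as a description with no test. Pck1 was followed most closely by Golga3 (0.995), C87436 (0.98) and Ebag9 (0.98), and G6pc by Cyp2c38 (0.95), Epha1 (0.95) and Wdr77 (0.94). Igfbp1 was followed by 9930104L06Rik (0.98), Tenm3 (0.96) and Uba6 (0.96), and Ppargc1a by BC048403 (0.99), Cnep1r1 (0.98) and Ift80 (0.97). Fbp1 was followed by Selenoi (0.98), Rtf2 (0.96) and Gpd1 (0.96), and Foxo1 by Yme1l1 (0.996), Rap1b (0.99) and Cnih1 (0.99). The points share libraries and scaling. Of the genes named, Gpd1, the cytosolic glycerol 3-phosphate dehydrogenase, stands in one of the related lists.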

How the data were processed

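Hepatocyte RNA was sequenced from 3 EV and 3 Sox4 libraries. The authors aligned reads to GRCm39 with STAR (2.7.10b in the submitters' processing notes) and made the gene counts with featureCounts 2.0.1; annotation release, strand setting and treatment of multiply mapped reads are not given in the sources used here. The deposited counts were used as they stand. The authors also deposited a normalized signal, the counts divided by DESeq2 size factors, which was used for 1 alternative. Reads were not analysed here.

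Genes were retained with filterByExpr (minimum count 10, minimum total 15), scaled by TMM and compared with the edgeR 4.0.16 quasi-likelihood test in R 4.3.3, with no covariate and Benjamini-Hochberg adjustment over 12691 genes at 0.05. All adjusted p-values come from this fit unless another tool or setting is named. SEs were computed from the log2 CPM of each group (prior count 2). Replicates differed beyond counting noise (chi-square per degree of freedom 17.6 to 62.7) and were treated as separate replicates. The edgeR fit, and no other test, was also run on simulated counts with known changes. Alternatives used other scalings, filters and tools (DESeq2 1.42.0, limma 3.58.1), a replicate block and each library left out. Exon lengths and overlapping genes came from GENCODE M21 (GRCm38, not the build that was counted) and promoter windows from RefSeq. The 10 genes and the lists were chosen with earlier results of these data known. Genes named are the 10, their isozymes and ratio partners, up to 4 genes with the smallest p and any at 0 in each list, and the 3 most similar genes for each of the 10 whose groups overlapped; exceptions are marked. Some list members and 1 ratio pair are counted in totals but not reported here.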

Additional observations from a re-analysis of the deposited data

How the results depend on the processing

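Of 150 values of the 10 genes under 15 alternatives, 134 kept their direction and their side of the threshold, 11 passed the threshold only under the alternative, 1 lost it and 4 changed sign. With library size alone, 6468 genes were higher and 1624 lower over all genes, 2 of the 10 genes were higher, and 56 related genes were higher and 29 lower. The log2 fold changes were then 0.26 for G6pc, 0.32 for Fbp1, 0.19 for Foxo1, -0.30 for Gys2 (no longer past the threshold), 0.78 for Ppargc1a and 1.41 for Igfbp1, which follows from the shift of all genes by 0.47. Pck1 passed with relative log expression scaling (-0.88), with DESeq2 (-0.88, adjusted p = 0.006), with no filter on low counts (-0.84) and with the replicate block (-0.77). When 1 library was left out, the range was -1.22 to -0.70 for Pck1, -0.642 to 0.0209 for G6pc (without Sox4 3 and Sox4 2), 0.11 to 0.60 for Ppargc1a and 0.44 to 1.46 for Igfbp1, and 0 to 1 of the 10 genes were higher (1 without EV 2 or without Sox4 1). The causes of the changes other than the scaling shift were not tested. The replicate numbers did not pair the libraries, with correlations of the deviations of same-numbered libraries of 0.27, -0.09 and 0.13. With the replicate number as a block, 7362 genes passed, 6853 of them shared with the unblocked fit, 6 of the 10 genes were lower, and Foxo1 passed at -0.29. All 11 within-library ratios kept an exact p above 0.05, which the design fixes. Depth was not limiting for the 10 genes, the lowest of which, Ppargc1a, had over 8 CPM in each library, whereas the 5 untested isozymes lay near the floor.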
